A study of Homo sapiens with 12 samples.

Results

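The genes described here belong to 3 DNA repair pathways. They were chosen by name and not by a rule on their measured values, though with earlier results of these data known. They were 21 genes of base excision and single-strand break repair, 5 of mismatch repair and 6 of end joining. All 32 symbols matched an Ensembl gene ID among the 63677 IDs of the count table, and all 32 were among the 26076 genes with enough reads to be tested. The list does not hold every gene of the pathways.

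Base excision repair starts with a glycosylase that cuts a damaged or wrong base from the DNA backbone. An endonuclease then nicks the empty site, a polymerase fills the gap and a ligase seals it, while PARP enzymes mark the open strand and recruit the scaffold protein XRCC1. Mismatch repair removes bases that the replication fork paired wrongly: MutS dimers find the mismatch and MutL dimers cut the new strand. End joining closes double-strand breaks without a template, beginning with the ring of the Ku proteins on each DNA end and finishing with the ligase LIG4.

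RNA was sequenced from LNCaP, an androgen-sensitive prostate cancer line, in 4 groups of 3 libraries grown in hormone-proficient medium. The vector control carried pLPLUC, and a second group overexpressed USP22, the ubiquitin protease of the SAGA coactivator complex. The shRNA control and the USP22 depletion group each carried an shRNA, induced for 5 days with 1 ug/mL of doxycycline that was renewed at intervals of 48 hours. The vector control and overexpression labels list no doxycycline, so the shRNA control differs from the vector control in construct and in doxycycline together, and these cannot be told apart. Depletion rests on 1 hairpin, and the labels do not say whether a line is clonal or if each replicate was its own culture, so the tests measure a spread that may be purely technical.

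The libraries held 77607469 to 103690001 counted reads. USP22 had mean counts in CPM (reads scaled to the effective library size) of 512.5 in the vector control, 1466 after overexpression, 477.6 in the shRNA control and 257.6 after depletion. The 9 luminal prostate markers were all above 0.5 CPM. Their summed level was 5005 to 5361 CPM in the vector control, 4704 to 4859 after overexpression, 6428 to 6629 in the shRNA control and 4592 to 5100 after depletion. Of the 9 markers 7 were lower after depletion than in the shRNA control and 2 higher. KLK3 had the largest fall, from a mean of 1428 to 326.3 CPM, while FOLH1 rose from 1173 to 1413. Of the markers of other cells, all 3 of leukocytes, 2 of 3 of endothelium, 2 of 3 of basal epithelium and 2 of 4 of fibroblasts had overall means under 0.5 CPM, and PECAM1 was at 0 in every group. The summed basal markers, nearly all KRT14, ran from 0.564 to 0.646 CPM in the vector control and from 3.44 to 3.69 in the shRNA control. The fibroblast markers, mainly COL1A1, ran from 6.74 to 10.5 and from 15.8 to 16.9. The endothelial markers, nearly all VWF, ran from 6.63 to 7.69 in the shRNA control and from 12 to 14.7 after depletion. The part of these shifts in the results below was not tested. Vector control replicate 3 was the highest of its group for 21 of the 32 repair genes and the lowest for 10, from 0.651 of the mean of the other vector control libraries for PMS1 to 1.57 times that mean for NTHL1. This library also deviated over all tested genes. The SD of its log2 CPM around the mean of its group mates was 0.587, against 0.335 to 0.46 in the other libraries. Its share of reads from the mitochondrial genome was 0.691%, against 1.04% to 1.53%. The calls that change without vector control replicate 3 are named with the counts of calls.

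Levels can be compared between genes only per length, here as CPM divided by exon length in kilobases (RPKM). Per length, 4 genes stood far above the rest in every group: the Ku subunits XRCC6 and XRCC5, the abasic site endonuclease APEX1 and the strand break sensor PARP1. In the vector control they had 202 ± 14.6, 121 ± 3.34, 121 ± 3.58 and 105 ± 9.52 RPKM (SD, n = 3 each), and the ranges of XRCC5, APEX1 and PARP1 were 117 to 124, 117 to 124 and 98.1 to 116. XRCC5 and APEX1 thus overlapped. The fifth was the uracil glycosylase UNG, at 29.4 ± 1.77 RPKM. After depletion XRCC6 remained first, at 116 to 133 RPKM, while XRCC5, at 58.3 to 66.9, lay below PARP1 (96.3 to 105) and APEX1 (81.7 to 90.8) without overlap.

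The scaffolds and rarer enzymes were low per length. XRCC1, the scaffold of single-strand break repair, had 3.25 ± 0.347 RPKM in the vector control, and XRCC4, the partner of LIG4, had 3.07 ± 0.246. The 8-oxoguanine glycosylase OGG1 had 2.38 ± 0.26, and its range of 2.16 to 2.67 overlapped that of the oxidised-base glycosylase NEIL1 (1.75 to 2.45). NHEJ1, which encodes the end joining factor XLF, was last in every group, at 0.134 ± 0.0256 RPKM or 0.356 to 0.507 CPM in the vector control.

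**Figure D1:**
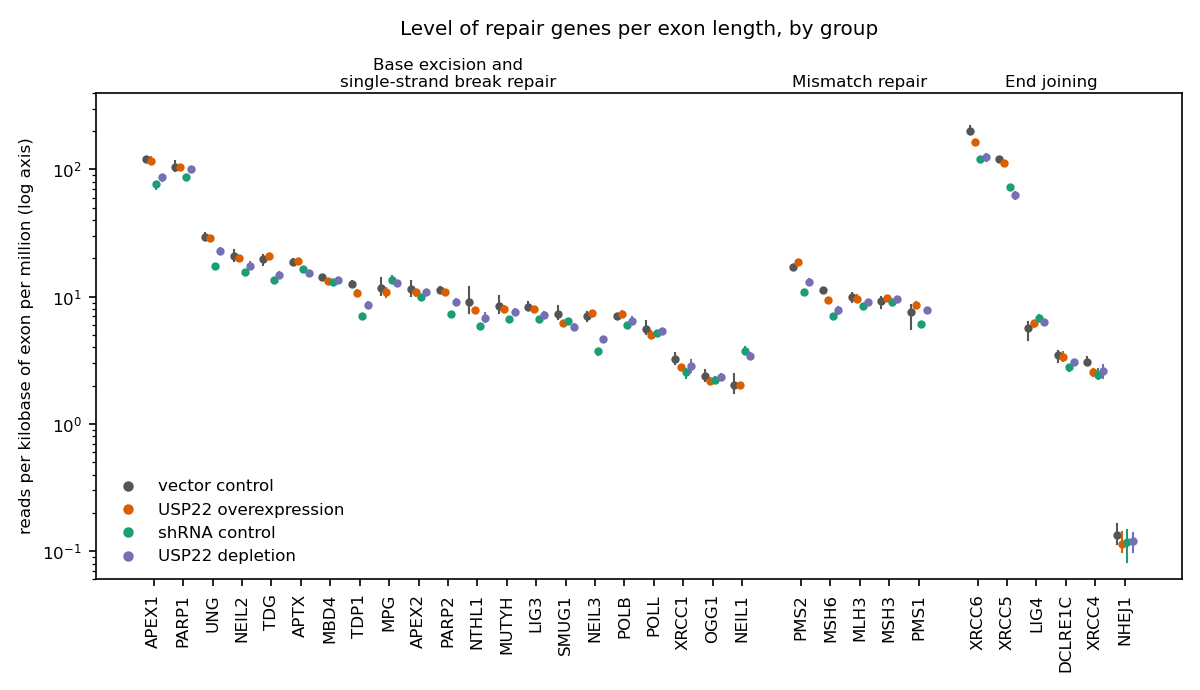
Level of each of the 32 repair genes in RPKM, on a log axis, by pathway and group; points are means of 3 libraries and lines run from the lowest to the highest library. XRCC6, XRCC5, APEX1 and PARP1 lie above the other genes in all 4 groups, and NHEJ1 lies lowest.

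The repair genes moved little when USP22 was raised, more when it was lowered, and most between the control lines. On overexpression 2 of 32 genes passed the test (edgeR adjusted p under 0.05), both lower, against 4.11% of all tested genes (2.6% called lower). On depletion 8 of 32 passed, 7 higher and 1 lower, against 19.8% of all tested genes (9.4% higher and 10.4% lower). Between the shRNA and vector controls 24 of 32 passed, 2 higher and 22 lower, against 43% (21.7% higher and 21.3% lower). These genes are mostly well expressed, and of the 11375 genes with a mean of at least 5 CPM, 6.46% passed on overexpression, 31.4% on depletion (16.2% higher) and 61.3% between the controls (36% lower). As a share of the 32 genes the calls were 6.25%, 25% and 75%. On overexpression and depletion the total is therefore near the background of expressed genes. The share called lower in the shRNA control, 68.8%, was larger than the 36% of that background, a difference to which no test was applied.

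The median log2 fold change of the 32 genes was -0.07 on overexpression, 0.11 on depletion and -0.32 between the controls. In the same order it was -0.01, 0.00 and 0.02 for all tested genes, and -0.03, 0.01 and -0.06 for expressed genes. The first and the third comparison share the vector control, and the second and the third the shRNA control. Against the vector control, depletion had 16 of 32 genes called, 1 higher and 15 lower, where 34.8% of all tested genes (16.2% higher and 18.6% lower) and 50.3% of expressed genes passed. The effects of overexpression and depletion differed for 5 of 32 genes, UNG, PARP2, TDP1, MSH6 and XRCC6, each with the lower value on overexpression, where 10.9% of all tested genes (4.91% higher and 5.98% lower) and 18.5% of expressed genes passed. Without vector control replicate 3 the counts were 3 on overexpression, 15 on depletion (13 higher, 2 lower), 25 between the controls, 20 for depletion against the vector control and 11 for the difference of effects. TDP1 was then also called lower on overexpression. On depletion APEX1, MSH6, MUTYH, NEIL2, NTHL1 and TDG were added as higher and SMUG1 as lower. Between the controls MBD4 was added as lower and MPG as higher, and LIG4 was lost. For depletion against the vector control DCLRE1C, MLH3, PMS1 and XRCC4 were added as lower and MPG as higher, and NTHL1 was lost (log2 -0.41 with that library and -0.16 without it, edgeR adjusted p = 0.0683). For the difference of effects DCLRE1C, MLH3, NEIL3, PMS1 and XRCC4 were added as lower and NEIL1 as higher. On overexpression no repair gene passed with only the 6 libraries compared or without overexpression replicate 2, and 1 passed without overexpression replicate 1 or 3, without depletion replicate 1 or without any 1 of the shRNA control libraries. On depletion 18 passed with only the 6 libraries compared, and 5 without shRNA control replicate 1 or depletion replicate 1.

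**Figure D2:**
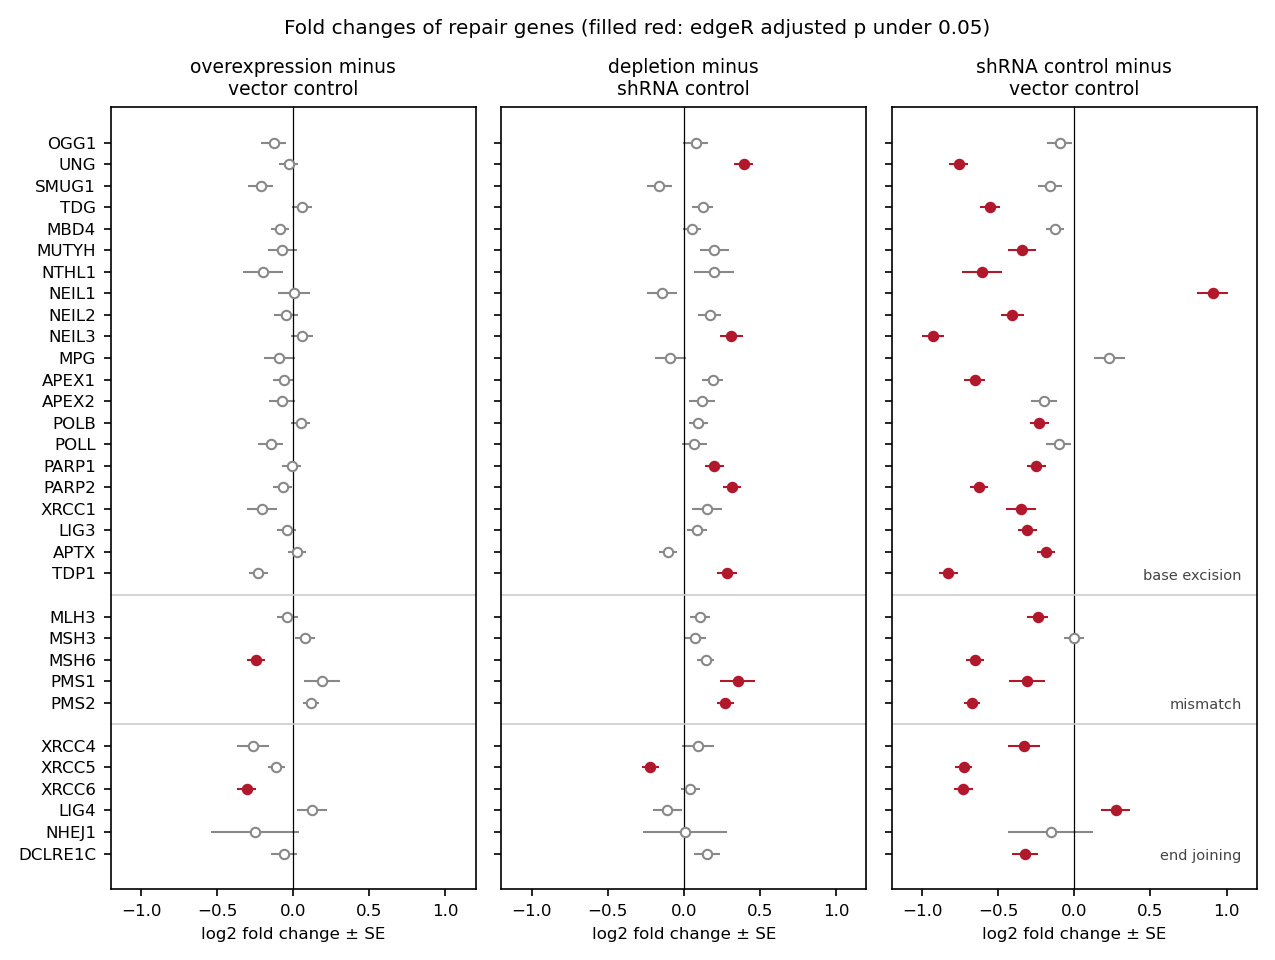
Log2 fold change with its standard error for each of the 32 genes (rows, by pathway) in 3 comparisons (columns); filled red points have an edgeR adjusted p under 0.05. Overexpression has 2 filled points, depletion 8 and the comparison of the controls 24, of which 22 lie to the left of 0.

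In base excision and single-strand break repair, 5 of 21 genes rose on depletion and none fell: the glycosylase genes UNG and NEIL3, the polymerase genes for poly(ADP-ribose) PARP1 and PARP2, and TDP1, whose product frees DNA ends from stalled topoisomerase 1. That is 23.8% of the 21, where 9.4% of all tested genes and 16.2% of expressed genes rose. None of the 21 was called on overexpression in the edgeR fit of all 12 libraries, and TDP1 was called there in 3 alternatives. In that fit 2 of the 21 had an unadjusted p under 0.05, where 4834 of all 26076 tested genes did. Between the controls 15 of 21 (71.4%) were called, 14 lower and NEIL1 higher in the shRNA control, where 43% of all tested genes and 61.3% of expressed genes were called. The median log2 fold change was -0.07 on overexpression, 0.12 on depletion and -0.31 between the controls.

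UNG removes uracil, the product of cytosine deamination and of dUTP use in replication. Its level was 72.2, 73.5 and 80.7 CPM in the vector control, 73.1, 74 and 74.5 after overexpression, 44.9, 45.2 and 43.5 in the shRNA control and 57.2, 62.3 and 56 after depletion. The vector control and overexpression libraries overlapped and were the highest, the shRNA control was lowest, and the depletion libraries lay between without touching either. The rise on depletion was 1.31-fold (log2 0.39, SE 0.06, edgeR adjusted p = 0.000248) and the fall from vector to shRNA control was to 0.59 (log2 -0.76, SE 0.06, edgeR adjusted p = 6.19e-08). On overexpression the log2 fold change was -0.03, with a 95% interval from -0.16 to 0.10, and it differed from that on depletion by -0.43 (edgeR adjusted p = 0.00474).

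NEIL3, a glycosylase for oxidised bases known from dividing cells, had the widest fall among the 32 genes between the controls. It had 21.5, 22.6 and 19.1 CPM in the vector control, 22.1, 21.9 and 21.8 after overexpression, 10.3, 11.6 and 11.4 in the shRNA control and 14, 13.7 and 13.5 after depletion. It rose 1.24-fold on depletion (log2 0.31, SE 0.08, edgeR adjusted p = 0.00763) from a control at 0.525 of the vector control (log2 -0.93). NEIL1, which cuts similar lesions, took the other direction between the controls: 12.1, 12.7 and 17 CPM in the vector control against 27.9, 24.7 and 25.9 in the shRNA control, a 1.88-fold difference (log2 0.91, SE 0.10, edgeR adjusted p = 2.3e-06). It had 14.3, 13.4 and 14.2 CPM after overexpression and 22.9, 24.8 and 23.3 after depletion. NEIL1 was not called on overexpression (log2 0.01) or depletion (-0.14).

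TDP1 had 75.3, 74.8 and 82.6 CPM in the vector control, 69.5, 63.9 and 65.1 after overexpression, 42.4, 43.5 and 45.3 in the shRNA control and 52.7, 56.2 and 50.9 after depletion. No group overlapped another. The rise on depletion was 1.22-fold (log2 0.29, SE 0.06, edgeR adjusted p = 0.00445). On overexpression the value was -0.23 (SE 0.06), short of the threshold (edgeR adjusted p = 0.0544). TDP1 passed there without vector control replicate 3 (log2 -0.18, edgeR adjusted p = 0.0306), by DESeq2 (0.0119) and with a filter of at least 1 CPM in 3 libraries (0.0433). The effects differed by -0.52 (edgeR adjusted p = 0.0015).

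PARP2, the smaller of the strand break PARPs, had 46.1, 44.3 and 49 CPM in the vector control, 43.8, 44.8 and 44.2 after overexpression, 29.8, 30.3 and 30.2 in the shRNA control and 36.1, 39.6 and 36.6 after depletion. It rose 1.24-fold on depletion (log2 0.32, SE 0.06, edgeR adjusted p = 0.00137). PARP1, which makes most of the poly(ADP-ribose) at breaks, had 718.8, 703.3 and 828.5 CPM in the vector control, 749.6, 726.7 and 757.3 after overexpression, 621.1, 631.9 and 640.4 in the shRNA control and 731.1, 752.4 and 690.3 after depletion. Its depletion libraries lay above the shRNA control and overlapped the vector control. PARP1 rose 1.15-fold (log2 0.20, SE 0.06, edgeR adjusted p = 0.0336), a call that ended without shRNA control replicate 1 (edgeR adjusted p = 0.0701), depletion replicate 1 or 2 (0.0641 and 0.0639) or overexpression replicate 1 or 3 (0.0519 and 0.0502). The ratio of PARP1 to PARP2, in CPM, was 16.1 ± 0.694 in the vector control and 21 ± 0.191 in the shRNA control (SD, n = 3 each). PARP2 stood at 0.648 and PARP1 at 0.841 of the vector control there.

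The central enzymes of the pathway did not pass the test on depletion and were lower in the shRNA control than in the vector control. APEX1, which nicks the abasic site, had 221, 227.1 and 234.4 CPM in the vector control, 207.1, 210.9 and 236.1 after overexpression, 133.6, 151.1 and 149.2 in the shRNA control and 169.6, 171.2 and 154.1 after depletion. Depletion lay above its control without overlap (log2 0.19, SE 0.07, edgeR adjusted p = 0.0624), and between the controls the value was -0.65 (edgeR adjusted p = 1.03e-06). On depletion APEX1 passed in 9 of the alternatives run, among them limma voom (adjusted p = 0.0494), DESeq2 (0.0352) and the fit without vector control replicate 3 (0.00977).

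POLB, the gap-filling polymerase, had 28.4, 29.4 and 29.3 CPM in the vector control, 28.7, 30 and 31.5 after overexpression, 25.15, 24.41 and 24.76 in the shRNA control and 25.93, 28.24 and 25.2 after depletion. The depletion libraries lay just above the shRNA control, with a log2 fold change of 0.10 (95% interval -0.04 to 0.23, edgeR adjusted p = 0.351), and the controls did not overlap (log2 -0.23, edgeR adjusted p = 0.00812). LIG3, the ligase that works with XRCC1, had 103.5, 101.4 and 116.8 CPM, then 106.9, 102.6 and 102.6, then 85.3, 86 and 88.6, then 90.5, 97.4 and 87.9 in the same order of groups. Its value was 0.09 on depletion (95% interval -0.05 to 0.22) and -0.31 between the controls (edgeR adjusted p = 0.000908). XRCC1 itself had 10.9, 10.2 and 12.5 CPM in the vector control, 9.4, 10.1 and 9.66 after overexpression, 8, 9.01 and 9.37 in the shRNA control and 11, 8.92 and 9.41 after depletion. The fall between its controls (log2 -0.35, edgeR adjusted p = 0.009) was not called without shRNA control replicate 1 (0.0501).

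APTX removes AMP groups left on DNA ends by failed ligation. It had 68.9, 69.7 and 75 CPM in the vector control, 73.4, 69.9 and 74 after overexpression, 61.4, 64.8 and 61.4 in the shRNA control and 57.5, 60.6 and 56.7 after depletion. Each depletion library was below each shRNA control library, but the value of -0.10 did not pass (edgeR adjusted p = 0.262). The difference between the controls (log2 -0.19, edgeR adjusted p = 0.0162) was not called without shRNA control replicate 1 or 3 (0.0671 and 0.0695), with only the 6 libraries compared (0.0639) or with no filter (0.0854).

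Several glycosylase genes also stood lower in the shRNA control. TDG, which removes thymine from G:T pairs and takes part in DNA demethylation, had 104.7, 100.3 and 87.2 CPM in the vector control, 98.6, 103.7 and 101.8 after overexpression, 65.4, 67.1 and 66.5 in the shRNA control and 71.3, 76.3 and 69.2 after depletion. The controls differed by -0.55 on the log2 scale (edgeR adjusted p = 5.82e-06), and the value on depletion was 0.12. NEIL2, which cuts oxidised bases, had 65.5, 64.3 and 79 CPM, then 64.8, 67.5 and 69.9, then 52.8, 54.1 and 50.5, then 57.9, 63.3 and 55.8 in the same order of groups, with -0.41 between the controls (edgeR adjusted p = 0.00046) and 0.17 on depletion. The depletion values were not called in the fit of all 12 libraries (edgeR adjusted p = 0.236 for TDG and 0.152 for NEIL2). They passed without vector control replicate 3 (0.0297 and 0.00919) and with only the 6 libraries compared (0.022 and 0.00851). In TDG and NEIL2 alike the depletion libraries lay above the shRNA control and below the vector control.

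The size of other differences between the controls rested on vector control replicate 3. NTHL1, a glycosylase for oxidised pyrimidines, had 18.7, 18.2 and 28.9 CPM in the vector control, 19, 18.5 and 19.8 after overexpression, 14.6, 14.9 and 13.6 in the shRNA control and 15.4, 18.1 and 16.1 after depletion. Its difference was -0.61 (edgeR adjusted p = 0.00147), and -0.36 without that library (0.000125). MUTYH, which removes adenine opposite 8-oxoguanine, had 30, 29.1 and 39.5 CPM, then 31.4, 29.5 and 32.9, then 25.9, 25.4 and 26.3, then 29.5, 31 and 28.7. Its difference was -0.34 (edgeR adjusted p = 0.00738), and -0.19 without that library (0.006). On depletion NTHL1 and MUTYH each had a value of 0.20 and were not called in the fit of all 12 libraries (edgeR adjusted p = 0.344 and 0.161). Each passed without that library (0.0153 and 0.0031) and with only the 6 libraries compared (0.0248 and 0.0024), and MUTYH also with no filter (0.0387). The alkylated-base glycosylase MPG had 17.6, 17.1 and 23.2 CPM in the vector control and 21.3, 24.2 and 22.3 in the shRNA control, which was not called (log2 0.23), and without that library its value was 0.38 (edgeR adjusted p = 0.000116). With that library kept, MPG passed with no filter on low counts (log2 0.25, edgeR adjusted p = 0.0145). It also passed with the filter of at least 1 CPM in 3 libraries (log2 0.27, edgeR adjusted p = 0.0321).

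The remaining genes had few calls or none. SMUG1, a further uracil glycosylase, was called in the fit of all 12 libraries for depletion against the vector control (log2 -0.32, edgeR adjusted p = 0.005), a call that ended with only the 6 libraries compared (0.0514). On depletion its value was -0.16 (edgeR adjusted p = 0.192), which passed without vector control replicate 3 (0.00854) and with only the 6 libraries compared (0.0126). Between the controls it passed without vector control replicate 2 (0.0453). It had 40.6, 40.1 and 50.6 CPM in the vector control, 38.1, 36.6 and 38.5 after overexpression, 40, 38.8 and 38.4 in the shRNA control and 34.9, 36.7 and 33.4 after depletion. OGG1, MBD4 (a glycosylase for mismatched thymine), MPG, APEX2 (a second abasic site endonuclease) and the polymerase POLL were not called in any of the 5 comparisons in the fit of all 12 libraries. Between the controls MBD4 was called without vector control replicate 3 (log2 -0.16, edgeR adjusted p = 0.00927), and APEX2 without vector control replicate 2 (0.0109) and by DESeq2 (0.0453). On depletion APEX2 was called with only the 6 libraries compared (0.0319). Their group means ran from 18.98 to 20.8 CPM for OGG1, from 43.6 to 47.6 for MBD4, from 18.1 to 22.6 for MPG, from 32.3 to 37.1 for APEX2 and from 27.1 to 30 for POLL.

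**Figure D3:**
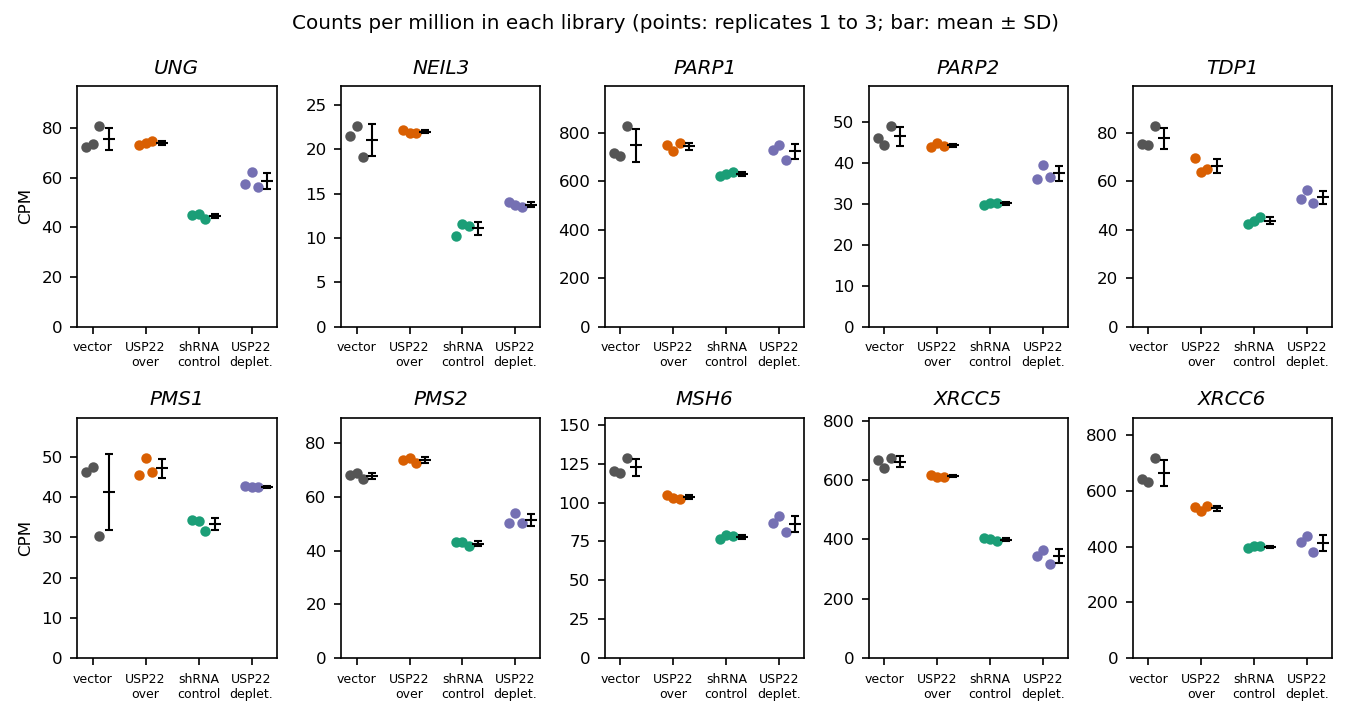
CPM of the 10 genes called on overexpression or depletion, in each library (points) with the mean and SD of each group (bars); each axis starts at 0. The shRNA control libraries are the lowest for UNG, NEIL3, PARP2, TDP1, PMS2 and MSH6, with depletion between them and the vector control, and XRCC5 is lowest after depletion.

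In mismatch repair, the MutL genes PMS1 and PMS2 rose on depletion, and the MutS gene MSH6 fell on overexpression. The median of the 5 genes was 0.08 on overexpression, 0.14 on depletion and -0.31 between the controls, where 4 of 5 were called lower in the shRNA control and MSH3 was not called. Of all tested genes 21.3% were called lower there, and of expressed genes 36%. On depletion 9.4% of all tested genes and 16.2% of expressed genes rose, and on overexpression 2.6% of all tested genes fell. All 5 genes were higher in every depletion library than in every shRNA control library, where the groups of 20.3% of all tested genes did not overlap in that direction.

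PMS2 carries the nuclease of the main MutL dimer. Its level was 68, 68.9 and 66.7 CPM in the vector control, 73.8, 74.6 and 72.5 after overexpression, 43.2, 43.1 and 41.6 in the shRNA control and 50.3, 54.1 and 50.1 after depletion. No group overlapped another. The rise on depletion was 1.21-fold (log2 0.27, SE 0.06, edgeR adjusted p = 0.00203), and the overexpression value was 0.12 (edgeR adjusted p = 0.266). The genome holds near copies of this gene, and 9 annotated pseudogenes named for PMS2 had reads equal to 66.9% of those of PMS2, so the split of reads is uncertain. Their summed level was 35.6 ± 1 CPM in the shRNA control and 37.3 ± 1.75 after depletion, and that of PMS2 with the copies was 78.2 ± 0.731 and 88.8 ± 3.91 (SD, n = 3 each).

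PMS1, the MutL partner with a smaller known role, had 46.1, 47.3 and 30.4 CPM in the vector control, 45.4, 49.7 and 46.1 after overexpression, 34.3, 34 and 31.5 in the shRNA control and 42.8, 42.4 and 42.4 after depletion. The third vector control library lay below every other library of the 4 groups. The rise on depletion was 1.28-fold (log2 0.35, SE 0.12, edgeR adjusted p = 0.0443). That call ended without any 1 of the overexpression, shRNA control or depletion libraries (edgeR adjusted p = 0.0566 to 0.142), and without vector control replicate 3, which enters only through the shared spread, the adjusted p was 2.65e-06. The difference between the controls was -0.31 (edgeR adjusted p = 0.0423). It was -0.49 without vector control replicate 3 (edgeR adjusted p = 3.5e-08), and the call ended without any 1 of the other 11 libraries (0.0502 to 0.19), by limma voom (0.0631), under the strict filter on low counts (0.0781) and with only the 6 libraries compared (0.153).

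MSH6 and MSH3 are alternative partners in the MutS dimers, MSH6 for single-base mismatches and MSH3 for longer loops. MSH6 had 120.3, 118.9 and 128.8 CPM in the vector control, 105.1, 103 and 102.4 after overexpression, 76.5, 79.1 and 78.7 in the shRNA control and 86.5, 91.2 and 81 after depletion. Each overexpression library was below each vector control library, a fall to 0.844 (log2 -0.25, SE 0.06, edgeR adjusted p = 0.0254). The call was lost in a fit of just the 6 libraries compared (edgeR adjusted p = 0.148), without any 1 of the overexpression (0.086 to 0.115) or shRNA control libraries (0.0645 to 0.0681), and without depletion replicate 1 (0.0751). On depletion its value was 0.14 (SE 0.06, edgeR adjusted p = 0.103), past the threshold in that comparison by DESeq2 (0.0485), under the strict filter (0.0287), with only the 6 libraries compared (0.0131), without vector control replicate 3 (0.0125) and without depletion replicate 3 (0.0243). The effects of overexpression and depletion differed by -0.39 (edgeR adjusted p = 0.00614).

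MSH3 stayed within narrow bounds. It had 46.8, 44.1 and 38.6 CPM in the vector control, 46.7, 45.8 and 44.4 after overexpression, 42.9, 43.4 and 43.1 in the shRNA control and 45.9, 45.3 and 45.1 after depletion. Its log2 fold changes were 0.08 on overexpression (95% interval -0.06 to 0.22), 0.08 on depletion (-0.07 to 0.22) and 0.00 between the controls (-0.15 to 0.14). The ratio of MSH6 to MSH3, in CPM, was 2.57, 2.69 and 3.33 in the vector control, 2.25, 2.25 and 2.31 after overexpression, 1.79, 1.82 and 1.83 in the shRNA control and 1.88, 2.01 and 1.8 after depletion. Overexpression and the shRNA control each lay below the vector control without overlap, while depletion overlapped the shRNA control. In an exact two-sided permutation test the log2 ratio was lower by 0.33 on overexpression and by 0.65 in the shRNA control than in the vector control, each with p = 0.1 (adjusted p = 0.133 over 12 such tests), the smallest p that 3 against 3 libraries allow. MLH3, another MutL subunit, had 88.9, 84.3 and 75.8 CPM in the vector control, 86.7, 79.4 and 76.6 after overexpression, 72.5, 68.6 and 69.7 in the shRNA control and 75, 76 and 75.7 after depletion. Its log2 fold change was -0.04 on overexpression, 0.11 on depletion and -0.24 between the controls (edgeR adjusted p = 0.00781 for the last).

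In end joining, the calls on overexpression and depletion were of the Ku subunits. XRCC6, which encodes Ku70, fell on overexpression, and XRCC5, which encodes Ku80, fell on depletion. In the fit of all 12 libraries the other 4 genes, XRCC4, LIG4, NHEJ1 and the nuclease gene DCLRE1C, which encodes Artemis, were not called in either comparison. The median of the 6 genes was -0.18 on overexpression, 0.03 on depletion and -0.33 between the controls, where 4 were called lower and LIG4 higher. Of all tested genes 21.3% were called lower there and 21.7% higher, and of expressed genes 36% were called lower. Of all tested genes 2.6% fell on overexpression and 10.4% on depletion.

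XRCC6 had 642, 629.5 and 718.3 CPM in the vector control, 539.9, 525.8 and 544.8 after overexpression, 396, 401.9 and 400.4 in the shRNA control and 415.2, 437.5 and 380.6 after depletion. The overexpression libraries lay below the vector control and above the shRNA groups, and the depletion libraries lay on either side of the shRNA control. The fall on overexpression was to 0.809 (log2 -0.31, SE 0.06, edgeR adjusted p = 0.00988), and -0.25 without vector control replicate 3 (edgeR adjusted p = 0.00253). That call was lost in a fit of just the 6 libraries compared (edgeR adjusted p = 0.0657) and without overexpression replicate 2 (0.0662). On depletion the value was 0.04 (95% interval -0.09 to 0.17).

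XRCC5 had 667.9, 640.7 and 675.4 CPM in the vector control, 616.1, 610.7 and 611.4 after overexpression, 404.4, 401.3 and 393.2 in the shRNA control and 344.5, 365.7 and 318.7 after depletion. No group overlapped another. The fall on depletion was to 0.858 (log2 -0.22, SE 0.06, edgeR adjusted p = 0.00958). The call ended without shRNA control replicate 1 or 2 or depletion replicate 1 or 3 (edgeR adjusted p = 0.0801, 0.0682, 0.0667 and 0.0804), and the value without depletion replicate 3 was -0.15. On overexpression the value was -0.11 (edgeR adjusted p = 0.303), with every library below the vector control. The effects of overexpression and depletion on XRCC5 did not pass the test of a difference (log2 0.11, edgeR adjusted p = 0.431), and those on XRCC6 did (log2 -0.35, edgeR adjusted p = 0.0182), the latter not without overexpression replicate 2 (0.057). Against the vector control, depletion had XRCC5 at 0.519 (log2 -0.95, edgeR adjusted p = 3.1e-09) and XRCC6 at 0.62 (log2 -0.69, edgeR adjusted p = 4.2e-07).

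The Ku proteins work as a dimer of equal parts, and their transcripts kept nearly the same ratio in both control lines. The ratio of XRCC5 to XRCC6, in CPM, was 1.04, 1.02 and 0.94 in the vector control, 1.02, 0.999 and 0.982 in the shRNA control, 1.14, 1.16 and 1.12 after overexpression and 0.83, 0.836 and 0.837 after depletion. Overexpression lay above its control and depletion below its control, in every library. The log2 ratio moved by 0.19 on overexpression and by -0.26 on depletion, each with p = 0.1 in an exact two-sided permutation test (adjusted p = 0.133 over 12 tests), the smallest this design allows. Between the controls, where each gene fell to about the same degree (log2 -0.73 each), the ratio differed by 0.00 (exact permutation p = 0.9). The ratios were chosen after the values were seen.

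XRCC4 and LIG4 form the complex that seals the break. XRCC4 had 8.96, 7.96 and 7.71 CPM in the vector control, 7.25, 6.96 and 6.31 after overexpression, 6.06, 7.19 and 6.32 in the shRNA control and 6.14, 7.73 and 7.02 after depletion. Its value was -0.26 on overexpression (edgeR adjusted p = 0.188), 0.10 on depletion and -0.33 between the controls (0.0165), the last not called without vector control replicate 1 (0.0741) or shRNA control replicate 1 or 3 (0.0858 and 0.066). LIG4 had 28, 26.6 and 20.2 CPM in the vector control, 28.3, 27.7 and 25.6 after overexpression, 31.5, 30.2 and 28.5 in the shRNA control and 28.1, 28.7 and 26.8 after depletion. The shRNA control was called higher (log2 0.27, edgeR adjusted p = 0.0326), and without vector control replicate 3 the value was 0.14 (edgeR adjusted p = 0.0592). That call also ended without shRNA control replicate 1 or 2 (0.136 and 0.0962), without any 1 of the depletion libraries (0.0527 to 0.0553) and with only the 6 libraries compared (0.117). DCLRE1C, whose product opens hairpin ends, had 23.9, 22.8 and 19.3 CPM in the vector control, 19.7, 23.2 and 20.5 after overexpression, 18, 18.1 and 16.6 in the shRNA control and 19.5, 19.1 and 19.9 after depletion, with -0.33 between the controls (edgeR adjusted p = 0.00531) and 0.15 on depletion. NHEJ1 was too low to bound well: its 95% interval on depletion ran from -0.58 to 0.60 on the log2 scale.

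**Figure D4:**
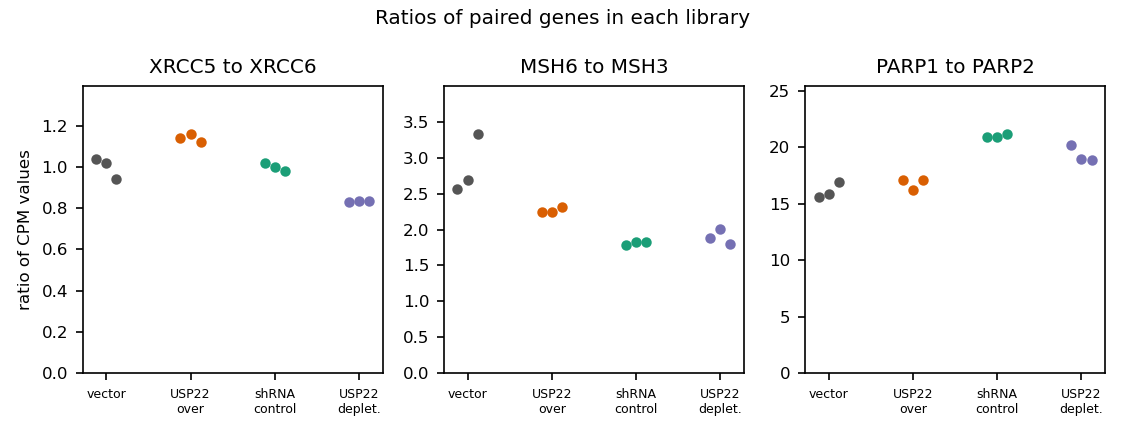
Ratios of the CPM values of paired genes in each library, by group, on axes that start at 0. XRCC5 to XRCC6 lies above the vector control after overexpression and below the shRNA control after depletion, and MSH6 to MSH3 is lower in both shRNA groups than in the vector control.

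Genes that finish the same pathways also rose on depletion. Of 19 genes of later strand synthesis and its clamps, 14 rose and none fell, where 9.4% of all tested genes rose. The median log2 fold change of the 19 was 0.36, beside 0.11 for the 32 genes and 0.00 for all tested genes. The genes that rose included the sliding clamp PCNA (log2 0.68, edgeR adjusted p = 1.03e-06), the exonuclease EXO1 of mismatch repair (0.62), the flap nuclease FEN1 (0.48) and the replicative ligase LIG1 (0.41). PARG, which removes poly(ADP-ribose), was not called, at -0.09. None of the 19 was called on overexpression by edgeR, where 3 had an unadjusted p under 0.05, as did 4834 of all 26076 tested genes. Of the 19, 16 were lower and 1 higher in the shRNA control than in the vector control. Of all tested genes 21.3% were called lower and 21.7% higher between the controls. Of 10 further end joining genes 1 rose on depletion and none fell, near the 9.4% of all tested genes and 16.2% of expressed genes that rose. It was POLQ, the polymerase of the alternative end joining route (log2 0.40, edgeR adjusted p = 5.85e-05). POLQ was lower in the shRNA control than in the vector control (log2 -0.91), and depletion remained below the vector control (-0.51). Between the controls 5 of the 10 were called, 3 higher and 2 lower, where 43% of all tested genes were called. TP53BP1, which protects ends from resection, had 0.06 on depletion and was called higher in the shRNA control than in the vector control (0.30).

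Proliferation genes moved with these values. The summed CPM of 13 such genes was 2663 to 2829 in the vector control, 2511 to 2561 after overexpression, 1281 to 1379 in the shRNA control and 1850 to 2008 after depletion, and no group overlapped another. On depletion 12 of 13 rose, with a median of 0.49, and all 13 were lower in the shRNA control than in the vector control, with a median of -1.13. Of the genes called on overexpression or depletion, UNG, NEIL3, PARP2, TDP1, PMS2 and MSH6 had the same order of vector control, depletion and shRNA control without overlap. PARP1, PMS1, XRCC5 and XRCC6 did not. APEX1, TDG, NEIL2, NTHL1 and POLB, called in neither comparison in the fit of all 12 libraries, had that order too. Groups without overlap, in either direction, were common among all tested genes. They made up 49.8% between the controls, 41.8% on depletion and 42.9% for depletion against the vector control. The share of all tested genes with that full order was not counted, so the order is not shown to be particular to repair genes. The part of these genes in the repair gene values was not tested. In bulk RNA fewer dividing cells and less RNA per cell cannot be told apart.

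Several repair genes start back to back with a neighbour on the other strand, in the GENCODE 29 annotation, within 1000 bases. Only some of these pairs are described here. No source used here gives the strand setting of the counting, and without strand the reads of overlapping genes cannot be told apart. PMS2 starts 120 bases from AIMP2, a scaffold of the transfer RNA synthetase complex. AIMP2 rose on depletion as PMS2 did, by 0.41 on the log2 scale (edgeR adjusted p = 0.0019), and was lower in the shRNA control than in the vector control by 0.74. XRCC6 starts 23 bases from DESI1, which had a log2 value of -0.08 on overexpression (edgeR adjusted p = 0.52) where XRCC6 had -0.31, and was lower in the shRNA control by 0.41. TDP1 starts 162 bases from EFCAB11, which had 0.02 on depletion (edgeR adjusted p = 0.925) where TDP1 had 0.29. NTHL1 overlaps the start of TSC2, an mTOR pathway inhibitor, which was higher in the shRNA control than in the vector control by 0.69 where NTHL1 was lower by 0.61. PMS1 overlaps the start of ORMDL1, which had 0.10 on depletion (edgeR adjusted p = 0.601) where PMS1 had 0.35. Between the controls ORMDL1 had 0.22 (edgeR adjusted p = 0.116) where PMS1 had -0.31. Like PMS1, ORMDL1 was low in vector control replicate 3, at 32.1 CPM against 47.5 and 47.1 in replicates 1 and 2.

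RefSeq promoter windows were available for 28 of the 32 genes and are given because several genes rose together on depletion. The 250 bases before each annotated start were searched on both strands for letters that resemble sites of the E2F factors of S phase, and for CCAAT, the NF-Y box. The first E2F-like motif was TTTCGCG. The second was TTTGGCG. The last was TTTCCCG. None of these motifs contains another. At least 1 E2F-like match stood in a window of 6 of 28 genes (21.4%, against 7.44% of 27305 genes in the table): MLH3, MSH3, PARP1, PMS1, PMS2 and UNG. CCAAT stood in windows of 18 of 28 (64.3%, against 37%). Of the 7 genes that rose on depletion, UNG, PARP1, PMS1 and PMS2 had an E2F-like match, and NEIL3, PARP2 and TDP1 had none. MSH3 had matches to TTTGGCG and TTTCGCG with a depletion value of 0.08. A match describes letters in these windows and not a bound site.

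The stretches below are shown because they lie before starts of genes that rose on depletion and differ in their matches. Each is the longest run of its window without an annotated exon base, 5′ to 3′ on the strand of the gene in GRCh38.p14, with matches in capitals. The UNG stretch is chr12:109097922-109098117 on the plus strand, PARP1 is chr1:226408094-226408343 on the minus strand, PMS2 is chr7:6009126-6009244 on the minus strand and NEIL3 is chr4:177309624-177309835 on the plus strand.
UNG: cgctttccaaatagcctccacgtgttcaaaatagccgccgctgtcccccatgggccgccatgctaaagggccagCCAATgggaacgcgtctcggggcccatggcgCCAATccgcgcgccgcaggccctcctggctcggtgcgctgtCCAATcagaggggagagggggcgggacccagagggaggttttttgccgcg
PARP1: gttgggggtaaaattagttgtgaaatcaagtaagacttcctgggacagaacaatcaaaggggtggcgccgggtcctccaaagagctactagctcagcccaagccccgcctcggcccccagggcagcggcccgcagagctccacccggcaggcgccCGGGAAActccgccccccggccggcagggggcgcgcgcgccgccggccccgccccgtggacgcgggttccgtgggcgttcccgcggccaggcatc
PMS2: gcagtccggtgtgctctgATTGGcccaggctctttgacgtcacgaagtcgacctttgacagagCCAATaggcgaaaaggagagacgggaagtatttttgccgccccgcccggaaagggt
NEIL3: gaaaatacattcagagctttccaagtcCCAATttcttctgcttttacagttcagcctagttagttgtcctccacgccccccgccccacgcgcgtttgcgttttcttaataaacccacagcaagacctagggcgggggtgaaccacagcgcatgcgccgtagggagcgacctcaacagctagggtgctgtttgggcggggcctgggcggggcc
The UNG stretch holds 3 copies of CCAAT, and its TTTCGCG match, on the minus strand 58 bases before the start, runs past the end of the stretch into an annotated exon. The PARP1 stretch, the full window, holds TTTCCCG on the opposite strand, printed as CGGGAAA, and no CCAAT. The PMS2 stretch is the piece between the annotated first exons of PMS2 and AIMP2 and holds CCAAT once on each strand, with the TTTCCCG match outside it, 147 bases before the nearer start. The NEIL3 stretch holds CCAAT once and no E2F-like match.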

How the data were processed

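Per the labels' protocols, the 12 LNCaP libraries came from a strand-marking kit for total RNA. The authors deposited 1 table of raw read counts per Ensembl gene ID. The submitters' processing notes name hg19, DESeq2 1.14.1, featureCounts 1.5.0-p3 and STAR 2.5.2a. No source used here gives the annotation release, the strand setting or how reads with several matches were handled. Columns were matched to samples by name, though those of the overexpression group shorten the title.

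The counts were fitted with edgeR 4.0.16 in R 4.3.3 (filterByExpr, TMM, glmQLFit on all 4 groups, 8 residual degrees of freedom, glmQLFTest), with Benjamini-Hochberg adjustment over all 26076 tested genes of each comparison and a threshold of 0.05. Standard errors and 95% intervals were derived from each fold change with its F value. CPM use TMM-scaled library sizes, and RPKM divide them by the union of GENCODE 29 exons, another annotation than the authors' hg19 one, so levels per length are approximate. DESeq2 1.42.0 and limma 3.58.1 served as alternatives. The procedure was tested on simulated data.

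Every gene of the list is named. Genes called in a comparison were described by library, and other genes of the pathways, proliferation genes, markers and motifs came from lists. The genes and lists were chosen with earlier results of these data known. The background of genes with a mean of at least 5 CPM, the PMS2 copies and the ratios were added after the values were seen. RPPH1, beside PARP2, was not matched to an ID. Some items are not reported here.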

Additional observations from a re-analysis of the deposited data

How the results depend on the processing

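The count of repair genes called on overexpression was 2, and 0 with only the 6 libraries compared, 1 at an adjusted p under 0.01 and 0 to 3 without single libraries. On depletion it was 8, and 18 with only the 6 libraries compared and 5 to 15 without single libraries. For the difference of effects it was 5, and 4 to 11 without single libraries. The background moved as well: 1072 genes called on overexpression became 2062 with no filter on low counts, 1781 by DESeq2, 327 with only the 6 libraries compared, 469 at an adjusted p under 0.01 and 501 to 1842 without single libraries, and 5172 on depletion became 8115 with only the 6 libraries compared, 3053 at an adjusted p under 0.01 and 3523 to 8359 without single libraries. No called repair gene changed direction under any alternative run. With the replicate number as a replicate block, a pairing the labels do not establish, the counts of called repair genes were 2, 8, 24, 16 and 5, the same numbers as without it (overexpression, depletion, controls, depletion against vector control, difference of effects), with all of those genes kept. Same-numbered libraries did not deviate together (correlations of -0.02 to 0.08). A fit without 1 library leaves 2 in its group. The cause of these shifts was not tested. Depth limits NHEJ1 most, the 1 gene of the 32 with a mean under 0.5 CPM in each group.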
